A study of Homo sapiens with 6 samples.

Results

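The 46 genes described here encode the MiT/TFE transcription factors (4 genes) and proteins of the lysosome (42 genes). They were listed by name: membrane proteins, proteases, glycosidases, enzymes and transporters of lipid breakdown, phosphatases with progranulin, and ion-handling proteins with subunits of the proton pump. A gene was measured through probe sets annotated to it alone, and its value was that of the probe set with the highest mean over the 6 arrays. This gave 44 of the 46 genes a value, out of 19775 genes measured. ACP5, a tartrate-resistant acid phosphatase, had no probe set named to it here, and GLB1, the lysosomal beta-galactosidase, had only a probe set that is also annotated to its neighbour TMPPE.

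The cells were MOLM-14, an established acute myeloid leukaemia line with an MLL-AF9 rearrangement. They were kept for 24 h in the vehicle DMSO (3 arrays) or in 10 nM CA, cortistatin A, which blocks CDK19 and CDK8 of the Mediator complex (3 arrays). The wells were plated in triplicate, so every array came from the same line, and p-values measure the spread between these wells, which may be technical. Each RNA sample was hybridised to a 3' expression array, and all values are deposited log2 intensities in which 1 unit is a doubling. In RNA from whole wells, fewer cells of a type and less RNA per cell cannot be told apart.

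The 6 arrays were alike. The median absolute difference over probe sets was 0.0865 to 0.0910 log2 units between arrays of 1 group and 0.109 to 0.119 between groups, and the median of an array lay between 5.59 and 5.62. FLT3, the receptor kinase that carries an activating duplication in this line, stood at a mean log2 of 11.69 with DMSO, and LYZ, the lysozyme of myeloid cells, at 13.38. Of 7 measured markers of such a line, ANPEP (4.29) and SPI1 (5.51) were below the array median. Over all genes, 1314 were higher and 888 lower with CA at an adjusted p under 0.05 by limma's moderated test, with Benjamini-Hochberg adjustment over all 19775 genes. A gene is said to have risen or fallen only where it passed that test.

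Lysosomes are acidic organelles that break down protein, sugar chains and lipid with hydrolases, and a proton pump, the V-ATPase, keeps their lumen acidic. The MiT/TFE factors TFEB, TFE3, MITF and TFEC are related basic helix-loop-helix leucine zipper proteins that bind E-boxes. TFEB and TFE3 are held in the cytoplasm when mTORC1 phosphorylates them at the lysosome and enter the nucleus on starvation or lysosomal stress, so much of their control leaves their own mRNA level as it was. In monocytes and macrophages lysosomes also serve the killing and digestion of what the cell has engulfed.

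With CA, 10 of the 44 genes fell and 1 rose, and 33 did not pass the test. The falls made up 22.7% of the 44 genes, against 4.49% of all genes, and the rise 2.27%, against 6.64%. TFEC fell most, followed by CD63, CTSS, ATP6V0D1, TPP1, ATP6AP1, SCARB2, ATP6V1A, CTSB and LIPA, and NPC1 was the gene that rose. Beyond TFEC these changes were small: the median of the 10 falls was -0.26, against -0.27 for the 888 falls of all genes. The median change of the 44 genes was -0.04, with quartiles of -0.17 and 0.02, and that of all genes was -0.0034. Of the 44 genes, 31 (70.5%) had a change below 0, against 51.2% of all genes.

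The 3 CA values lay wholly below the 3 DMSO values for 18 of the 44 genes (40.9%, against 15.2% of all genes) and wholly above them for 5 (11.4%, against 16.6%). Of the 33 genes that did not pass, 29 had a 95% confidence interval that stayed within a 1.2-fold change in either direction. The 4 others were CTSK, CTSL, MANBA and NEU1. Among all genes, 11179 of the 17573 that did not pass had such an interval.

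**Figure D1:**
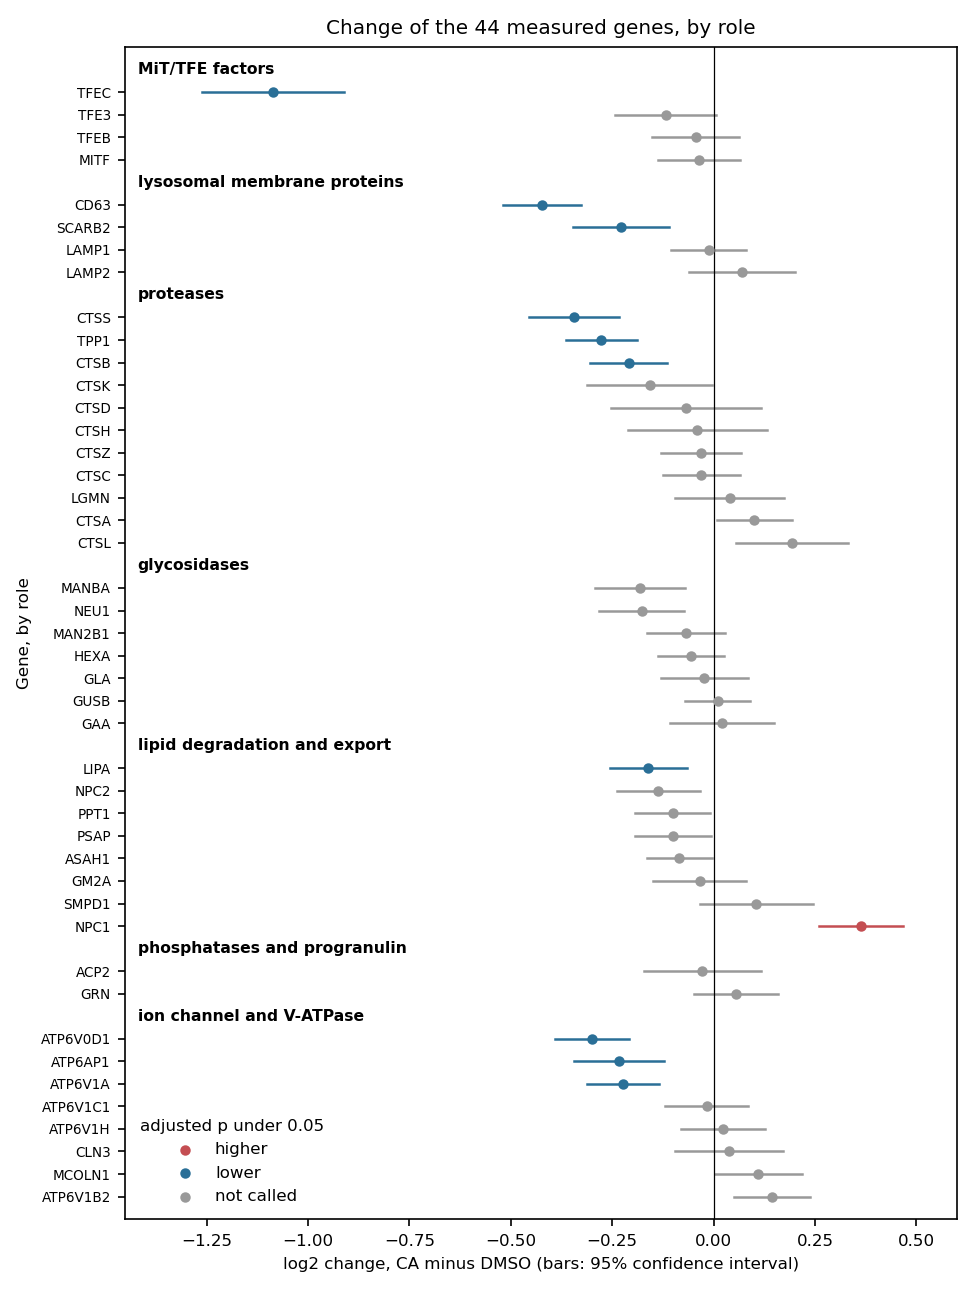
Log2 change, CA minus DMSO, of each of the 44 measured genes, grouped by role, with bars for the 95% confidence interval of limma. TFEC lies apart at -1.09, the other 9 falls lie between -0.42 and -0.16, and NPC1 is the called gene above 0, at 0.36.

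The 44 genes were more brightly measured than most, with a median mean log2 of 9.17 against 6.47 for all genes. With all genes of a mean log2 of at least 6 tested on their own, 14 of 43 genes of the list were lower, against 14.0% of those 10997 genes, and 3 were higher, against 17.4%. The added calls were the lower MANBA, NEU1, NPC2 and ASAH1 and the higher CTSL and ATP6V1B2. With a mean of at least 8, a limit chosen after seeing the data, 15 of 31 were lower, against 21.7% of 6822 genes, and 3 were higher, against 25.1%. Centring the arrays on reference genes moved the median of all genes from -0.0034 to 0.035. The reference genes moved too, in both directions. HPRT1 was called lower (-0.21, adjusted p = 0.0131), and the CA values of GAPDH (-0.14) and YWHAZ (-0.15) lay wholly below the DMSO values. Those of ACTB (0.05) and SDHA (0.12) lay wholly above them, and the ranges of PPIA, TBP and PGK1 overlapped. None of these but HPRT1 passed the test. With this centring the list counted 8 lower and 3 higher genes, and all genes counted 582 lower and 1756 higher.

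Among the MiT/TFE factors, TFEC was the gene that fell. It read 7.69, 7.65 and 7.52 with DMSO and 6.41, 6.61 and 6.59 with CA. All CA arrays were far below all DMSO arrays, with a gap larger than the spread within either group. The means were 7.62 ± 0.09 and 6.53 ± 0.11 (SD, n = 3 each), a change of -1.09 (SE 0.07, 95% confidence interval -1.26 to -0.91) or 2.12-fold lower, with a limma adjusted p of 3.72e-04. This was the 11th largest of the 888 falls of all genes. All 3 TFEC probe sets were lower, by -1.09, -0.80 and -0.60. The last of these was dim, with a mean log2 of 3.84, below the lower quartile of every array, and so adds little.

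TFEC is expressed mainly in myeloid cells and macrophages. Of 10 measured markers of monocytes and macrophages, 4 fell and none rose: CD36 (-1.49), MNDA (-1.09), ITGAM (-0.45) and CSF1R (-0.39). The CSF1R call was lost without DMSO replicate 3 (adjusted p = 0.0520), and that of ITGAM without probe sets that can match several genes or transcripts (-0.13, adjusted p = 0.543). The summed linear signal of all 10 was 10900 to 12300 with DMSO and 10400 to 11000 with CA, but LYZ, which did not pass (-0.05), made up 93.2% to 95.7% of it. Without LYZ the other 9 summed to 725 to 753 with DMSO and 463 to 480 with CA. The 4 that fell were the brightest of these 9, with DMSO means of 6.69 to 7.90, so this sum mostly repeats their falls. The rest had DMSO means of 3.73 to 4.75 and did not pass the test. CD14, the lipopolysaccharide co-receptor, was near the lower quartile of the array in both groups (4.36 and 4.71). Of 10 granulocyte markers 4 fell, among them PRTN3 (-1.02), a serine protease of primary granules, and AZU1 (-0.90), its inactive homologue azurocidin, and 1 rose, CTSG (0.15), a call lost with any 1 array left out (adjusted p = 0.0958 to 0.118). That list summed to 22900 to 23200 with DMSO and 20000 to 20400 with CA. Called rises among markers of other lists were NCAM1 (0.41, adjusted p = 0.00260) of T and NK cells, KRT18 (0.26) of epithelium and MEIS1 (0.25) of such leukaemia lines. The T and NK list summed to 1370 to 1460 with DMSO and 1790 to 1900 with CA. Most of that sum was NCAM1, at a mean log2 of 10.30 with DMSO and 10.70 with CA. The other 6 of its 7 measured markers were below the array median, and none of them passed the test. The part of these markers in the changes of the lysosome genes was not tested.

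The other factors of the family did not pass the test. TFEB, the factor best known for driving lysosome genes, read 8.86, 8.90 and 8.77 with DMSO and 8.78, 8.82 and 8.79 with CA. The ranges overlapped, and the change was -0.04 (95% confidence interval -0.15 to 0.06, adjusted p = 0.611). MITF, which also controls melanocyte and osteoclast genes, changed by -0.04 (-0.14 to 0.06, adjusted p = 0.658). TFE3 read 7.89, 7.95 and 7.92 with DMSO and 7.73, 7.89 and 7.77 with CA, with 1 CA array inside the range of the DMSO arrays. Its change was -0.12 (-0.24 to 0.01, adjusted p = 0.222). With the gene's probe set of largest variance the TFE3 change was -0.32 and passed the test (adjusted p = 0.0325). That variance is over all 6 arrays, so it includes the difference between the groups. This set had a mean log2 of 5.85, against 7.86 for the one used. In the test per probe set it was the 1 of 4 TFE3 probe sets that was lower.

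**Figure D2:**
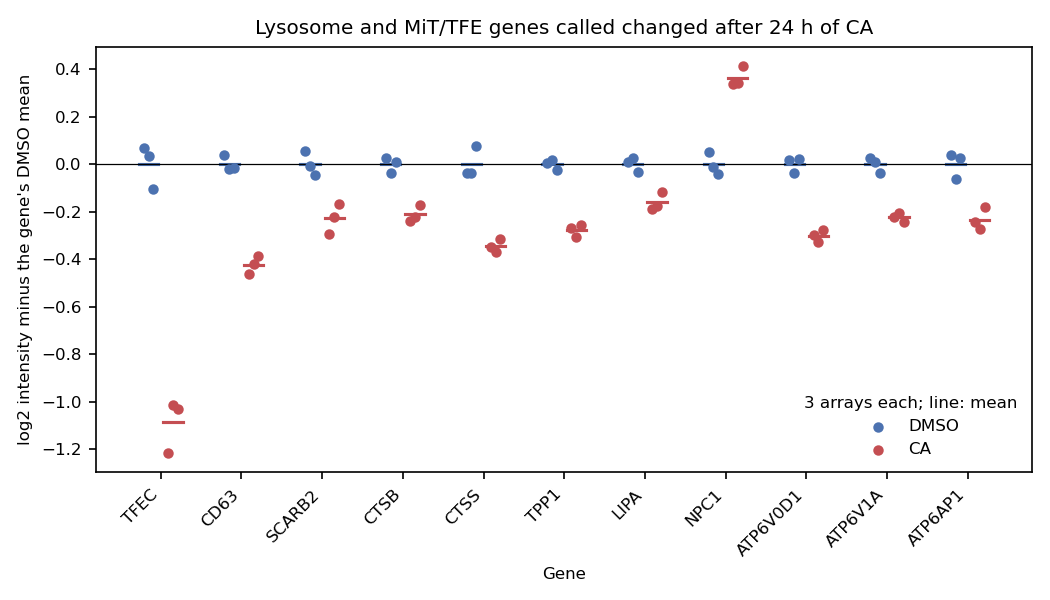
Log2 intensity on each array relative to the mean of the DMSO arrays, for the 11 genes that passed the test, with 3 DMSO and 3 CA points per gene. The CA points lie wholly below the DMSO points for the 10 genes that fell, farthest for TFEC, and wholly above them for NPC1.

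The E-box letters that MiT/TFE factors are known to bind were looked for in the promoters of the list, because TFEC fell while TFEB, TFE3 and MITF did not pass the test. RefSeq promoter windows of build GRCh38.p14, from 250 bases before to 50 bases after a gene's start, were given for 33 of the 46 genes. CACGTG, on either strand, was in a window of 10 of the 33 genes (30.3%), against 8.77% of 27305 genes with a window. The longer form TCACGTGA was in 6 (18.2%, against 1.18%) and the same letters with a G before and a C after them in 2 (6.06%, against 0.421%), and each longer form holds the shorter ones. TCATGTG, an E-box variant known from melanocyte genes, was in 7 of the 33 (21.2%, against 3.59%). These are matches of letters, not binding measured in these cells.

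A stretch of 30 bases around a match is given for the 9 measured genes with a CACGTG, since these are the genes where the motif and a value can be read side by side. Each is written 5' to 3' on the strand of its gene, with the longest of these motifs in capitals.
LAMP1, chr13:113297199-113297228, plus strand: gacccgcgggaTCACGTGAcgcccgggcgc
CD63, chr12:55729172-55729201, minus strand: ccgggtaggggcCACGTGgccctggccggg
CTSA, chr20:45891298-45891327, plus strand: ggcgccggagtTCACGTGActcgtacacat
CTSD, chr11:1763957-1763986, minus strand: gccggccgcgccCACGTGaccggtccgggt
GAA, chr17:80101538-80101567, plus strand: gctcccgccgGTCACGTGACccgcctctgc
NEU1, chr6:31862930-31862959, minus strand: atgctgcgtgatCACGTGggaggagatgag
MCOLN1, chr19:7522598-7522627, plus strand: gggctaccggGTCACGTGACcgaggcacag
CLN3, chr16:28492058-28492087, minus strand: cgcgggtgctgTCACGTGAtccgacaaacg
ATP6V0D1, chr16:67481199-67481228, minus strand: cccccttatggTCACGTGAggcgcttgcgc

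Of these 9 genes CD63 and ATP6V0D1 fell, none rose and 7 did not pass the test, with a median change of -0.01. Of the 22 measured genes whose windows held no CACGTG, 5 fell and 1 rose, with a median of -0.04, and of the 13 measured genes with no window 3 fell, with a median of -0.09. LAMP1 had 6 matches in its window and a change of -0.01, while ATP6V0D1 had 1 match and a change of -0.30. The CD63 match was in 1 of the 8 windows of that gene. The 250 bases before the start of ATP6V0D1, which fell and has a single window, are given to show what surrounds its match.
ATP6V0D1, chr16:67481158-67481407, minus strand: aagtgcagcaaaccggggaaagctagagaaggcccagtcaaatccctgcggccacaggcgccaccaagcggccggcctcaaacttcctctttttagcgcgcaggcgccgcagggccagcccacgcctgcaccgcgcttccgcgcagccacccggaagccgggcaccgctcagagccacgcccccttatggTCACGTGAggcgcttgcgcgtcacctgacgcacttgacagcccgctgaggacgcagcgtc
The first base of the match is 60 bases upstream of the start.

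Of the 4 lysosomal membrane proteins, CD63 and SCARB2 fell, and the median change was -0.12. CD63, a tetraspanin of late endosomes, lysosomes and secretory granules, read 11.01, 10.95 and 10.96 with DMSO and 10.51, 10.55 and 10.59 with CA. The arrays of each group lay within 0.1 of each other and the groups did not overlap. The change was -0.42 (SE 0.04, adjusted p = 0.00148), so that CD63 fell by 25.4%. SCARB2, the receptor that carries beta-glucocerebrosidase to the lysosome, read 9.34, 9.27 and 9.24 with DMSO and 8.99, 9.06 and 9.12 with CA. Its change of -0.23 (SE 0.05, adjusted p = 0.0331) rested on a narrow margin. The call was lost with any 1 of the 6 arrays left out (adjusted p = 0.0520 to 0.0981), and with the mean of its probe sets (-0.17, adjusted p = 0.0596).

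The structural membrane proteins LAMP1 and LAMP2 did not pass the test. LAMP1 read 12.64, 12.60 and 12.57 with DMSO and 12.56, 12.58 and 12.62 with CA, with a change of -0.01 (95% confidence interval -0.10 to 0.08). Its ranges overlapped almost fully. LAMP2 changed by 0.07 (-0.06 to 0.20).

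Of the 11 proteases, CTSS, TPP1 and CTSB fell, none rose, and the median change was -0.04. CTSS, the cathepsin that trims the invariant chain of MHC class II in antigen-presenting cells, read 10.52, 10.52 and 10.63 with DMSO and 10.20, 10.18 and 10.24 with CA. The change was -0.34 (SE 0.05, adjusted p = 0.00583), and the groups did not overlap. The call was lost on the probe set of largest variance (-0.47, adjusted p = 0.139). TPP1, a tripeptidyl peptidase whose loss causes a childhood neuronal ceroid lipofuscinosis, read 9.70, 9.72 and 9.68 with DMSO and 9.43, 9.39 and 9.45 with CA. All CA arrays were below all DMSO arrays, with a change of -0.28 (SE 0.04, adjusted p = 0.00542). In the test per probe set 1 of its 4 probe sets passed, and without sets that can match several genes or transcripts the gene's call was lost (-0.10, adjusted p = 0.473).

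CTSB, a cysteine cathepsin, read 10.52, 10.46 and 10.51 with DMSO and 10.26, 10.28 and 10.33 with CA. The groups did not overlap, and the change was -0.21 (SE 0.04, adjusted p = 0.0205). In the test per probe set 4 of its 5 probe sets were lower. The gene's call was lost without DMSO replicate 1 or 3 or CA replicate 1 or 2 (adjusted p up to 0.0782), and on the probe set of largest variance (-0.29, adjusted p = 0.317).

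The remaining 8 proteases did not pass. CTSL, a cysteine cathepsin that many cell types express, had CA values (7.49, 7.59 and 7.59) wholly above its DMSO values (7.46, 7.31 and 7.31), and a change of 0.19 (95% confidence interval 0.06 to 0.33, adjusted p = 0.0858). With genes of a mean log2 of at least 6 tested on their own CTSL passed the test. CTSK, the collagen-degrading cathepsin of osteoclasts, changed by -0.16 (adjusted p = 0.189). CTSA, the protective protein that also stabilises NEU1, changed by 0.10. CTSD, the main aspartic protease of lysosomes, changed by -0.07. The cathepsins CTSH, an aminopeptidase, CTSC, which activates the serine proteases of granules, and CTSZ, a carboxypeptidase, changed by -0.04, -0.03 and -0.03, and LGMN by 0.04. LGMN, an asparaginyl endopeptidase, had a mean log2 of 3.35, below the lower quartile of every array, so that value says little of its mRNA.

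None of the 7 measured glycosidases passed the test, and their median change was -0.06. For 4 of the 7 the CA values lay wholly below the DMSO values, against 15.2% of all genes, 1 of them (MAN2B1) with the closest arrays at 10.08 in both groups. NEU1, a sialidase, read 8.40, 8.37 and 8.44 with DMSO and 8.22, 8.17 and 8.28 with CA, a change of -0.18 that just missed the threshold (adjusted p = 0.0501). MANBA, a beta-mannosidase, read 8.13 to 8.26 with DMSO and 7.99 to 8.01 with CA, a change of -0.18 (adjusted p = 0.0557). Both passed when genes of a mean log2 of at least 6 were tested on their own. HEXA, the alpha subunit of beta-hexosaminidase, changed by -0.06, MAN2B1, an alpha-mannosidase, by -0.07, and GLA, an alpha-galactosidase, by -0.02. GAA, the glycogen-degrading acid alpha-glucosidase, changed by 0.02. GUSB, a beta-glucuronidase often used as a reference gene, changed by 0.01 (95% confidence interval -0.07 to 0.09).

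The genes of lipid breakdown and export moved in both directions. Of 8, NPC1 rose and LIPA fell, and the median change was -0.09. NPC1, the membrane protein that moves cholesterol out of the lysosome, read 8.37, 8.31 and 8.28 with DMSO and 8.66, 8.66 and 8.73 with CA. Every CA array was above every DMSO array. The change was 0.36 (SE 0.04, adjusted p = 0.00374), or 28.7% higher. The 3 other NPC1 probe sets were dim, with mean log2 values of 3.28 to 4.47, and did not pass. The mean of all 4 probe sets changed by 0.05 (adjusted p = 0.643).

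NPC2, the soluble protein that hands cholesterol to NPC1, did not rise with it: its change was -0.14 and did not pass (adjusted p = 0.101), though it passed with dimmer genes, of a mean log2 under 6, left out (adjusted p = 0.0289). LIPA, the acid lipase that frees that cholesterol from its esters, read 11.48, 11.50 and 11.45 with DMSO and 11.29, 11.30 and 11.36 with CA. The change was -0.16 (SE 0.04) at an adjusted p of 0.0494, close to the threshold. The LIPA call was lost with any 1 array left out (adjusted p = 0.0754 to 0.144), and the change turned to 0.04 (adjusted p = 0.729) with the mean of its probe sets. Its other probe set was dim, at a mean log2 of 3.31 against 11.40 for the one used.

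The sphingolipid genes did not pass. PSAP, the precursor of the saposins that present sphingolipids to their hydrolases, changed by -0.10 (adjusted p = 0.172), and by -0.18 with the mean of its probe sets, which passed (adjusted p = 0.0392). ASAH1, an acid ceramidase, read 10.15, 10.17 and 10.15 with DMSO and 10.07, 10.07 and 10.08 with CA, so that the groups were apart, but the change was -0.09 (adjusted p = 0.175, and 0.0482 with genes of a mean log2 under 6 left out). PPT1, which removes fatty acids from proteins, changed by -0.10 and GM2A, the activator of ganglioside breakdown, by -0.03. SMPD1, an acid sphingomyelinase, changed by 0.11. The phosphatase ACP2 changed by -0.03. GRN, the precursor of the granulins, changed by 0.06.

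Of the 8 genes of ion handling and the V-ATPase, 3 fell, each a subunit or accessory protein of the pump, and the median change was 0.00. ATP6V0D1, a subunit that joins the membrane sector to the stalk of the pump, read 9.43, 9.37 and 9.43 with DMSO and 9.11, 9.08 and 9.13 with CA. The groups did not overlap, and the change was -0.30 (SE 0.04, adjusted p = 0.00466). ATP6V1A, the catalytic subunit that splits ATP, read 10.73, 10.71 and 10.67 with DMSO and 10.48, 10.50 and 10.46 with CA. These groups too lay apart, and the change was -0.22 (SE 0.04, adjusted p = 0.0128). The ATP6V1A call was lost without CA replicate 3 (adjusted p = 0.0534), and on the probe set of largest variance (-0.34, adjusted p = 0.158).

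ATP6AP1, an accessory protein of the pump, read 8.71, 8.61 and 8.70 with DMSO and 8.43, 8.40 and 8.49 with CA, a change of -0.23 (SE 0.05, adjusted p = 0.0243). The call was lost without DMSO replicate 1 or 3 or CA replicate 1 or 2 (adjusted p up to 0.0897), and with the probe set of largest variance for every gene (adjusted p = 0.0635). ATP6V1B2, the subunit that pairs with ATP6V1A, went the other way without passing: it read 10.66, 10.65 and 10.70 with DMSO and 10.81, 10.78 and 10.85 with CA. These ranges did not overlap, and the change was 0.14 (adjusted p = 0.0668). With genes of a mean log2 under 6 left out it passed (adjusted p = 0.0154). ATP6V1C1 changed by -0.02 and ATP6V1H by 0.02, both subunits of the cytoplasmic sector. MCOLN1, the lysosomal calcium channel, changed by 0.11 (adjusted p = 0.189), and CLN3, a membrane protein mutated in juvenile neuronal ceroid lipofuscinosis, by 0.04.

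Separate probe sets of a gene gave a further reading. The 44 genes had 105 probe sets, of which 16 were lower and 1 higher when every probe set was tested, against 2.72% and 3.83% of all 41091 probe sets. Of the 8 called genes with more than 1 probe set, 3 had at least 2 probe sets called in the same direction, TFEC, CTSB and CTSS. No probe set of SCARB2 or LIPA passed in this wider test. CD63, ATP6V0D1 and ATP6AP1 each had a single probe set.

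**Figure D3:**
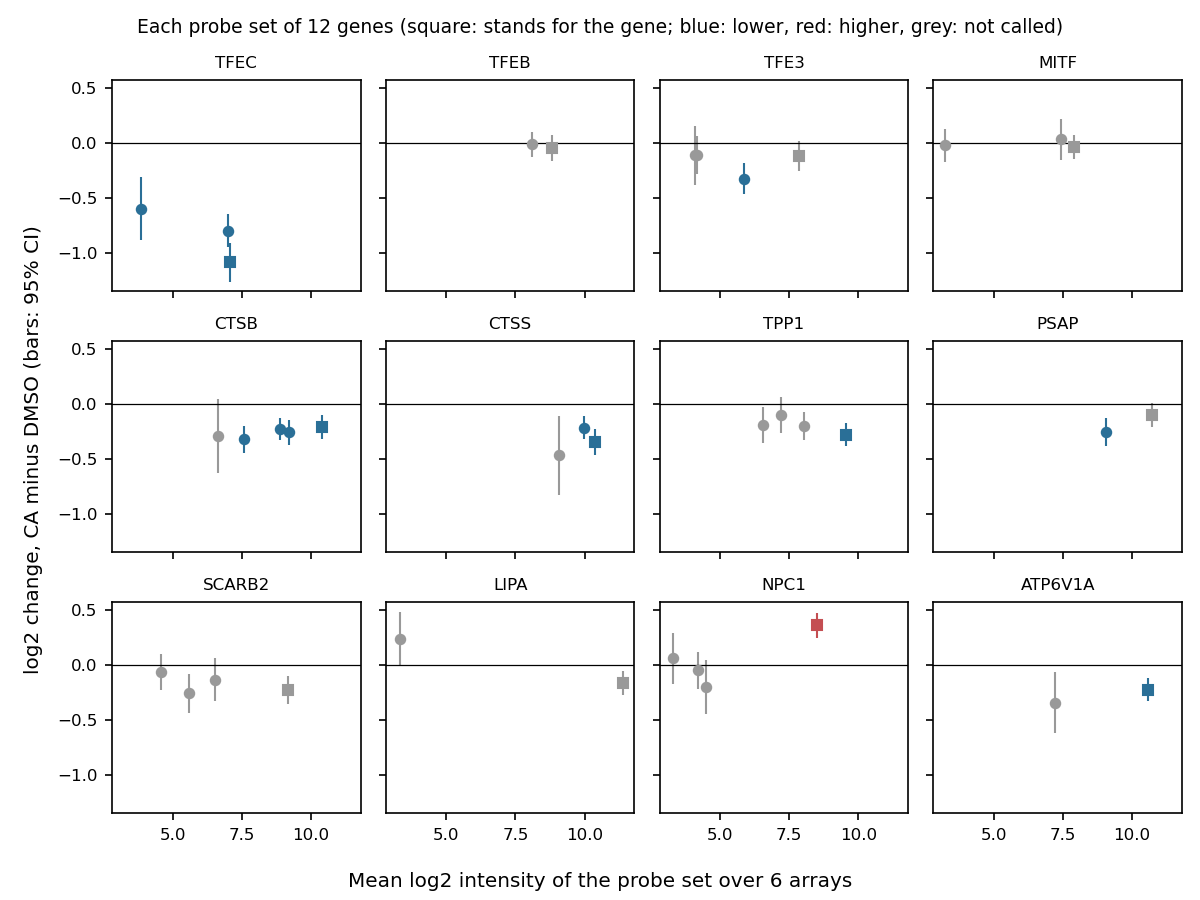
Log2 change, CA minus DMSO, of separate probe sets of genes of the list against their mean log2 over the 6 arrays. Probe sets called in the test per probe set are marked. TFEC has 3 called probe sets, CTSB 4 and CTSS 2, while SCARB2 and LIPA have none.

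A wider set of 117 genes of the same pathway that are not among the 46 was counted beside them. Of these 106 were measured: 12 fell (11.3%, against 4.49% of all genes), 10 rose (9.43%, against 6.64%), and the median change was -0.02. They too were brighter than most genes, with a median mean log2 of 8.755. With genes of a mean log2 of at least 6 tested on their own, 23 of 94 were lower, against 14.0% of all such genes. In that test 13 of 94 were higher, against 17.4%, so the rises were then below the share of all genes. Among 24 measured hydrolases and activators, 4 fell and 4 rose. The falls were IDS (-0.51, adjusted p = 0.00860), a sulfatase of glycosaminoglycan breakdown, the carboxypeptidases CPVL (-0.44, adjusted p = 8.34e-04) and SCPEP1 (-0.31), and GGH (-0.17), a gamma-glutamyl hydrolase. The rises were CTSO (0.47), CTSV (0.37), which are cathepsins, FUCA1 (0.41, adjusted p = 0.00297), an alpha-fucosidase, and DNASE2 (0.24), a nuclease. IDS, CPVL, SCPEP1 and FUCA1 kept their call with any 1 array left out, and GGH lost it each time (0.0740 to 0.138). Without probe sets that can match several genes or transcripts, IDS lost it too (-0.34, adjusted p = 0.0565). CTSO held only without DMSO replicate 3, and CTSV and DNASE2 only without CA replicate 1, with adjusted p up to 0.119, 0.0719 and 0.0702 in the other 5 cases.

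Of 24 measured membrane proteins and transporters, 3 fell and 3 rose. MCOLN3 (-0.57, adjusted p = 0.00809), a relative of MCOLN1, SLC36A1 (-0.30), an amino acid exporter, and LAPTM5 (-0.29), a membrane protein of blood cells, fell. SLC38A9 (0.38, adjusted p = 0.00916), the arginine sensor upstream of mTORC1, CTNS (0.33), the cystine exporter, and LAPTM4A (0.19) rose. Both SLC38A9 and MCOLN3 kept their call with any 1 array left out, while LAPTM4A lost it each time (adjusted p = 0.0656 to 0.123). CTNS lost it without DMSO replicate 2 or any CA replicate (adjusted p up to 0.0657). SLC36A1 lost it on the mean of its probe sets (-0.18, adjusted p = 0.186).

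Of 15 other V-ATPase subunits, ATP6V0C (-0.19), which forms the proton-carrying ring, and ATP6V1G2 (-0.33), near the lower quartile of the array, fell, and ATP6V0A2 (0.29) and ATP6V1C2 (0.46) rose. ATP6V0C lost its call with any 1 array left out (adjusted p = 0.0586 to 0.0674), ATP6V0A2 without DMSO replicate 3 or any CA replicate (up to 0.0840), and ATP6V1C2 without DMSO replicate 1 or 2 or CA replicate 1 or 3 (up to 0.0656). Among 23 measured regulators of MiT/TFE factors, such as mTORC1 and Ragulator subunits, 1 fell, the Ragulator subunit LAMTOR4 (-0.21, adjusted p = 0.0179), which lost its call with any 1 array left out (0.0501 to 0.0653). Of 15 sorting genes GGA2 rose (0.30, adjusted p = 0.00565), an adaptor that carries enzymes from the Golgi, but on its probe set of largest variance the change was -0.16 (adjusted p = 0.510). That set was the dimmest of its 8, at a mean log2 of 4.86. The others changed by 0.02 to 0.30, and not all of them were called. Both CSTA (-0.34, adjusted p = 0.00295) and CST3 (-0.29, adjusted p = 0.0113), which are inhibitors of cysteine cathepsins, fell among 5 cystatins.

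**Figure D4:**
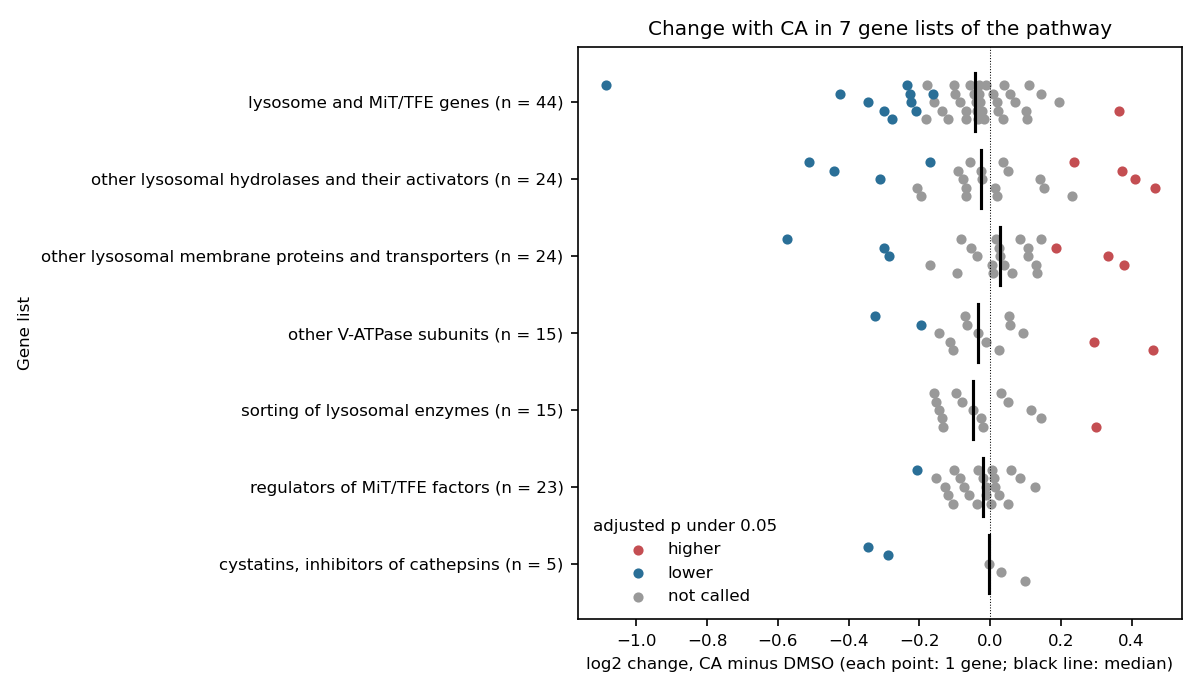
Log2 change, CA minus DMSO, of the measured lysosome and MiT/TFE genes and of 6 other lists of the pathway, 1 point per gene, with called genes in colour and a bar at the median of each list. The falls outnumber the rises 10 to 1 in the first row. Falls and rises are 4 and 4 among the other hydrolases, 3 and 3 among the other membrane proteins and 2 and 2 among the other V-ATPase subunits. They are 0 and 1 among the sorting genes, 1 and 0 among the regulators and 2 and 0 among the cystatins.

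Signs of RNA quality were read from the control probe sets. The log2 signal of GAPDH at its 3' end exceeded that nearer the 5' end by 0.38 ± 0.025 with DMSO and 0.48 ± 0.048 with CA (SD, n = 3 each, exact permutation test, 2-sided, p = 0.1, the smallest that 3 against 3 arrays allow). For ACTB the values were 2.27 ± 0.13 and 2.38 ± 0.07 (exact permutation test, p = 0.3, n = 3 each). The part of this in the changes was not tested.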

How the data were processed

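The authors deposited log2 intensities per probe set; the submitters' processing notes name RMA and affy. RMA removes background, puts all arrays on the same distribution and shrinks large fold changes. Software versions, the set of arrays processed jointly and the RNA kit of each sample (either of 2) are not given in the sources here. Precision is limited by 3 arrays per group, none identical to another.

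Of 54675 probe sets, 62 were controls, 41091 had a single gene symbol in the platform annotation, 1801 had several and 11721 were unnamed here. By Entrez number, 41037 (99.9%) matched a RefSeq gene table of GRCh38.p14. A probe set with several symbols was assigned to no gene, and dim genes were kept.

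The groups were compared with limma 3.58.1 in R 4.3.3 (lmFit, eBayes), 2-sided, on all 6 arrays without covariates, with Benjamini-Hochberg adjustment over 19775 genes. All adjusted p-values are from such fits. The script was tested on simulated data. Marker sums are over linear signals (2 raised to each log2 value). The text names every listed gene, every called gene of the other pathway lists, and some markers. The genes and lists were chosen with earlier results of these data known.

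Alternatives changed the probe set per gene, the limit on level, the centring, the moderation, array weights, thresholds, a replicate block, and left out each array in turn. Replicate numbers gave no sign of pairing: same-numbered deviations correlated at 0.023 to 0.030 (3 pairs). So few arrays cannot show that the samples were unpaired.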

Additional observations from a re-analysis of the deposited data

How the results depend on the processing

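Over 767 recomputed values of the 44 genes, 666 kept their direction and side of the threshold, 39 lost the call and 34 gained it. A further 26 changed direction but were called neither before nor after. The other 2 changed direction for a called gene, both of LIPA: 0.038 on the mean of its probe sets and 0.24 on the probe set of largest variance. Both draw on its dim probe set, whose mean log2 of 3.31 was below the lower quartile of every array. GGA2 reversed to -0.16 on the probe set of largest variance, which was its dimmest. With the replicate block, 5 of the 44 genes were lower, and all genes counted 716 higher and 402 lower. The replicate numbers gave no sign of pairing, since 0 of 6 arrays correlated best with their own number, but so few arrays cannot exclude it. The count of lower genes of the list (10) was 5 on the probe set of largest variance, 16 with an intensity trend and robust moderation, 5 at an adjusted p under 0.01, and 5 at 1.2-fold or more. With 1 array left out it was 6 to 8. The count of higher genes (1) was 0 on the mean of probe sets, and 3 with mean log2 limits of 5, 6 or 8, with reference centring, with the trend, and at an adjusted p under 0.1. With 1 array left out it was 1 to 2. Of the other pathway genes, the count of higher genes (10) was 6 on the probe set of largest variance and 3 at an adjusted p under 0.01, and 3 to 6 with 1 array left out. The count of lower genes (12) was 7 without _x_at and _s_at probe sets, 19, 23 and 24 with a mean log2 limit of 5, 6 and 8, 26 with the trend, and 20 at an adjusted p under 0.1. Of all genes, 1314 higher became 841 on the probe set of largest variance, 770 without _x_at and _s_at probe sets, 2119 with the trend, 573 at an adjusted p under 0.01, and 795 at 1.2-fold. With 1 array left out the count was 721 to 848. The 888 lower became 570, 566, 1695, 312 and 454 in the same order, 1539 and 1481 with a mean log2 limit of 6 and 8, 582 with reference centring, and 1432 at an adjusted p under 0.1. With 1 array left out the count was 435 to 495. Fewer genes were tested under the level limits and fewer arrays in the left-out fits. For the other settings the cause was not tested. The limit of a mean log2 of 8 was chosen after seeing the data. CD63 and ATP6V0D1 kept their call under all the alternatives run, and TFEC under all but the limit of 8, where its level left it untested.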

Other observations

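GLB1, the lysosomal beta-galactosidase, was left out of every count because its probe set is also annotated to TMPPE, a gene that overlaps it. That probe set read 8.80, 8.80 and 8.75 with DMSO and 8.71, 8.71 and 8.73 with CA. The ranges did not overlap, and the means were 8.78 ± 0.03 and 8.72 ± 0.01 (SD, n = 3 each), a difference of -0.07. The signal cannot be divided between the genes.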
